A study of Homo sapiens with 16 samples.

Results

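The genes described here encode the subunits of the respiratory chain and of ATP synthase: 13 of them lie in the mitochondrial genome and 89 in the nucleus. They were chosen by gene symbol alone, as protein-coding genes of GENCODE 29 whose names begin with MT-, NDUF followed by A, AB, B, C, S or V and a number, SDHA to SDHD, UQCR, COX4 to COX8 or ATP5, which gave 102 of 35075 genes. RNA was sequenced from cells of HEK293, a human embryonic kidney line, in 4 groups of 4 libraries. All cells overexpressed something: GFP in the control group, wild-type RNF43 in WT, and in the other groups the frameshift variants RNF43 R117fs and RNF43 G659fs, on top of the cells' own RNF43 gene. RNF43 is a membrane-bound ubiquitin ligase that lowers Wnt signalling by clearing Frizzled receptors. How the constructs were delivered, whether RNA was selected for poly(A), and whether each replicate was its own culture are details not given in the sources used here. Therefore the p-values below measure the spread between these libraries, which may be technical. Bulk RNA cannot tell fewer cells of a kind from less RNA per cell.

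The respiratory chain passes electrons from NADH (complex I) and succinate (complex II) through complex III to cytochrome c oxidase (complex IV), pumping protons across the inner mitochondrial membrane, and ATP synthase (complex V) uses the gradient to make ATP. Complexes I, III, IV and V are built from both genomes: the mitochondrial genes encode hydrophobic core subunits and the nuclear genes all the others, while complex II is nuclear only. Mitochondrial genes are transcribed as long polycistronic RNAs and cut into messages at the tRNAs between them, whereas each nuclear subunit gene has a promoter of its own. The symbols set some borders. NDUFA4, which is now known as a subunit of complex IV, was counted there. CYC1, the cytochrome c1 subunit of complex III, was not caught by the rule and stands among the supporting genes below. The rule also took in ATP5S and the read-through gene ATP5MF-PTCD1.

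Library sizes were 20364357 to 46779570 estimated counts, and 96 of the 102 genes passed the low-count filter: all 13 mitochondrial and 83 nuclear genes. RNF43 checked the labels: its level was 13.2 to 50.3 CPM (counts scaled to library size after TMM) in the GFP libraries and 30191 to 94568 CPM in the libraries of the RNF43 constructs. The estimate does not tell the variants from the wild type. The 10 genes listed as expressed in HEK293 cells (VIM, NEFL, NEFM and others) averaged over 1 CPM across all libraries, LHX1 being under 1 in GFP (0.69) and R117fs (0.51). Some markers moved with the constructs. The HEK293 genes summed to 1014 to 1163 CPM in GFP. Their sums were 1345 to 1443 CPM (WT), 1140 to 1353 (R117fs) and 1236 to 1350 (G659fs), and the neurofilament gene NEFM rose by 0.92, 0.69 and 1.02 (edgeR). The 8 fibroblast markers, mostly COL1A1, summed to 43.6 to 58.0 CPM (GFP), 35.8 to 49.7 (WT), 39.7 to 63.5 (R117fs) and 55.5 to 70.7 (G659fs), and in G659fs COL3A1 rose by 1.09 and LUM by 0.98. The 7 gut epithelium markers, mostly CDX2 and with FABP1 at 0, summed to 25.3 to 27.1 CPM in GFP and 28.1 to 36.6 in the construct libraries, and the 9 haematopoietic markers, with HBG1 at 0, to 4.74 to 8.60 CPM. Of 38 tested replication-dependent histone genes, whose messages lack poly(A) tails, 9 rose and 3 fell in WT, 2 rose and 0 fell in R117fs and 6 rose and 5 fell in G659fs, and the listed 70 summed to 150 to 167 CPM in GFP and 130 to 218 in the construct libraries. Over all tested genes 9.85% rose and 11.6% fell in WT (edgeR, adjusted p under 0.05). The shares were 7.04% and 8.57% in R117fs and 11.6% and 13.8% in G659fs. The part of these marker and histone differences in the results below was not tested. R117fs replicate 4 stood apart: over its genes, the log2 deviation from the other R117fs libraries had an SD of 0.58, against at most 0.41 in the other 15 libraries. Its deviations rose with GC content (Spearman 0.79 over genes), and the R117fs calls are taken up again without it further down.

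The counts of 6 nuclear genes were too low to be tested. COX4I2, COX6A2, COX7A1, COX7B2 and COX8C are the lung, muscle, testis and other tissue-specific forms of complex IV subunits, and ATP5MGL is a copy related to the ATP synthase gene ATP5MG. COX4I2 had no count in any library, COX7B2 had 2 counts over all 16 libraries, COX6A2 had 4 and COX7A1 had 20. COX8C had 67 counts and ATP5MGL had 81. In HEK293 cells the complex IV message was that of the ubiquitous forms: COX4I1 was at 640.9 ± 11.3 TPM (a scale per transcript length; SD, n = 4) in GFP, COX6A1 at 592 ± 17.4, COX8A at 629.8 ± 19.6 and COX7A2 at 367 ± 16.4. COX6B2, the testis form of COX6B, passed the filter at 0.75 ± 0.15 TPM in GFP, against 416 ± 9.0 for COX6B1.

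Per length, every mitochondrial message stood above every nuclear one but COX7C. In GFP the order ran from MT-CO2 (4159 ± 430 TPM), MT-CO1 (4025 ± 560) and MT-ATP6 (3702 ± 378) through MT-CO3 (3271 ± 293) to MT-ND4L (2292 ± 217), MT-ATP8 (2122 ± 163) and MT-ND4 (2104 ± 150). Below these came MT-ND3 (1496 ± 219), MT-CYB (1421 ± 123), MT-ND2 (1417 ± 132) and MT-ND1 (1206 ± 125), and last MT-ND6 (764.8 ± 76.6) and MT-ND5 (754 ± 67.3). Neighbours within each of these sets differed by less than the sum of their SDs, whereas the gaps from MT-CO3 to MT-ND4L, from MT-ND4 to MT-ND3 and from MT-ND1 to MT-ND6 exceeded that sum. The catalytic core of cytochrome c oxidase, MT-CO1 and MT-CO2, and the proton channel subunit MT-ATP6 headed the order with MT-CO3. MT-ND6, the one protein gene on the light strand, and its neighbour MT-ND5 came last. Reads shared with nuclear copies were divided by estimation, and the place of MT-ATP6 in the order can depend on that division.

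**Figure D1:**
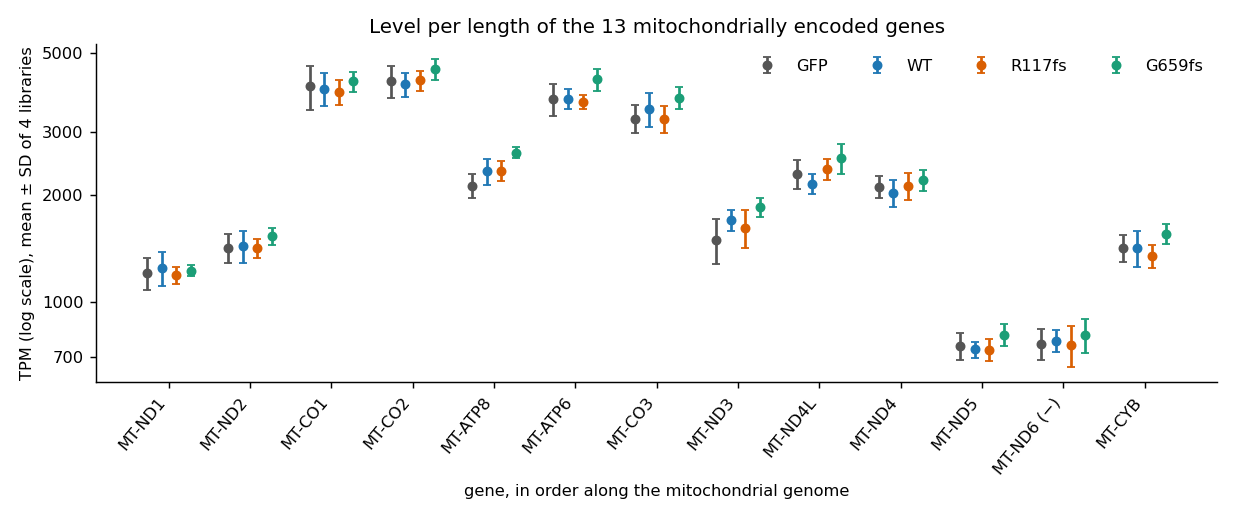
TPM of the 13 mitochondrially encoded genes (log axis), placed in their order along the mitochondrial genome; points are means and bars SDs of 4 libraries in each of the 4 groups, and (−) marks the gene on the other strand. The estimated levels in GFP, from MT-CO2 at 4159 TPM to MT-ND5 at 754 TPM, span far more than the differences between groups.

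Of the nuclear genes, COX7C, a small membrane subunit of complex IV, was highest, at 1070 ± 61.4 TPM in GFP. It was followed by ATP5MC2 (680 ± 43.7), one of the genes for the c-ring of ATP synthase, and by COX4I1 and ATP5F1B (634 ± 46.6), the catalytic beta subunit. The highest nuclear genes of the other complexes were UQCRH of complex III (436 ± 21.6), NDUFA11 of complex I (343 ± 13.5) and SDHC of complex II (166.8 ± 6.47). The 3 genes that encode the same mature c-ring protein differed in level: ATP5MC2 stood at 680 TPM, ATP5MC3 at 320 ± 3.5 and ATP5MC1 at 241 ± 8.8. Within complex I the tested nuclear genes ranged from NDUFA11 down to 9.86 ± 0.73 TPM.

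The 13 mitochondrial genes summed to 13539, 13274, 12541 and 15438 CPM in GFP replicates 1 to 4, to 16801, 14191, 15439 and 13704 CPM in WT, to 14461, 14231, 15026 and 14623 CPM in R117fs and to 15211, 16503, 16313 and 14936 CPM in G659fs. GFP replicate 4 lay among the construct libraries, so the GFP range overlapped that of every other group. The 89 nuclear genes summed to 7768, 7876, 7708 and 7471 CPM in GFP, 8634, 8933, 8619 and 8661 in WT, 8504, 8153, 8553 and 8809 in R117fs and 8687, 8653, 8472 and 8461 in G659fs. Here each of the 12 construct libraries lay above all 4 GFP libraries. As log2 differences from GFP the nuclear sum was higher by 0.18 in WT, 0.14 in R117fs and 0.15 in G659fs, and the mitochondrial sum by 0.13, 0.09 and 0.20, with SDs over GFP libraries of 0.03 (nuclear) and 0.13 (mitochondrial). The log2 ratio of the mitochondrial to the nuclear sum was 0.83 ± 0.15 in GFP, 0.78 ± 0.14 in WT, 0.78 ± 0.04 in R117fs and 0.88 ± 0.07 in G659fs. Differences of the construct means from GFP were smaller than the SD of GFP. Between G659fs and R117fs the difference was 0.098, above the SD of either group, with overlapping ranges, and was not tested.

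**Figure D2:**
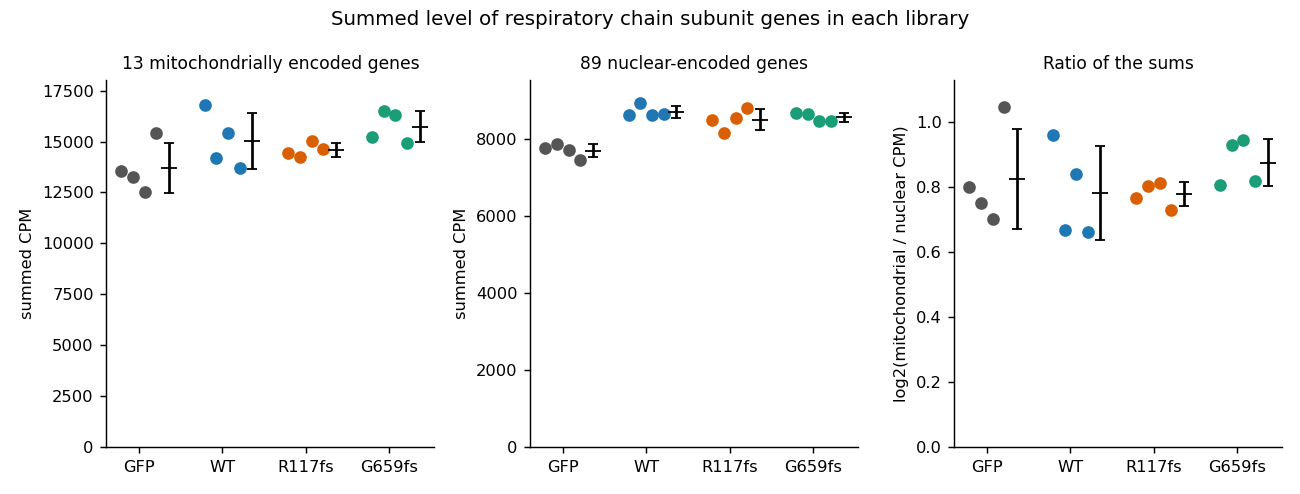
Summed CPM of the mitochondrially encoded genes (left) and the nuclear-encoded genes (middle), and the log2 ratio of the sums (right); each point is a library, in replicate order within its group, and the bar beside it gives the mean and SD of 4 libraries. The nuclear sum is 7471 to 7876 CPM in GFP and 8153 to 8933 CPM in the construct libraries, while mitochondrial sums and ratios overlap between all groups.

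The scale matters for these sums. RNF43 itself reached 94568 CPM in a construct library, and TMM rescales the remaining genes for such a share. As a plain share of all counts, the mitochondrial genes held 1.46% ± 0.13 in GFP, 1.46% ± 0.14 in WT, 1.43% ± 0.02 in R117fs and 1.56% ± 0.09 in G659fs. Nuclear genes held 0.820% ± 0.014, 0.843% ± 0.014, 0.832% ± 0.026 and 0.849% ± 0.010 in the same order. On the TPM scale, which also includes RNF43, the nuclear sums differed from GFP by only 0.04 (WT), 0.03 (R117fs) and 0.06 (G659fs) on the log2 scale. With a total that leaves out RNF43 and the mitochondrial genes the nuclear differences were 0.12, 0.12 and 0.11. Every rise reported below is therefore a rise relative to the bulk of other genes, whose median log2 change lay between -0.01 and 0.00 in the comparisons with GFP.

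In WT against GFP, subunit genes of every complex but complex II rose. Of the 83 nuclear genes tested 31 rose and none fell, and of the 13 mitochondrial genes 3 rose and none fell, at an adjusted p under 0.05 (edgeR's quasi-likelihood test, Benjamini-Hochberg over 16787 genes). Over all tested genes 9.85% were called higher and 11.6% lower in this comparison. The median log2 change was 0.18 over the nuclear and 0.14 over the mitochondrial genes, against 0.00 over all genes, and 80 and 13 of the values were above 0. The rises were small: the highest, in ATP5MC1, was 0.40. By complex, 14 of 37 nuclear genes rose in complex I, 0 of 4 in complex II, 4 of 9 in complex III, 4 of 13 in complex IV and 9 of 20 in complex V. In complex II 2 of the 4 genes had an unadjusted p under 0.05, and SDHB, the iron-sulfur subunit, had a log2 change of 0.16 ± 0.06 (SE) with an adjusted p of 0.0526 (edgeR) and of 0.0163 (DESeq2).

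Complex I members that rose in WT included the flavin-binding NDUFV1, which takes electrons from NADH. NDUFV1 was at 168, 157, 150 and 160 CPM in GFP, 200, 202, 194 and 201 in WT, 205, 178, 180 and 248 in R117fs and 192, 191, 184 and 192 in G659fs. Each construct library exceeded each GFP library, R117fs replicate 4 being the highest of all. Such full separation from GFP, met again in genes below, was common. All libraries of the construct lay above all GFP libraries in 17.1% (WT), 7.29% (R117fs) and 19.1% (G659fs) of all tested genes. NDUFV1 rose by 0.33 ± 0.08 in WT (adjusted p = 0.00812), 0.35 ± 0.08 in R117fs (0.00786) and 0.26 ± 0.08 in G659fs (0.0272; all edgeR).

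NDUFS5 and NDUFS6 are accessory subunits of complex I. NDUFS5 was at 63.7, 69.8, 62.5 and 67.5 CPM in GFP, 76.3, 95.6, 73.4 and 86.1 in WT, 71.4, 71.7, 84.5 and 83.0 in R117fs and 84.9, 92.5, 89.6 and 86.2 in G659fs. It was above every GFP library in every construct library. NDUFS5 rose by 0.33 ± 0.08 in WT (adjusted p = 0.00847, edgeR) and by 0.42 ± 0.08 in G659fs (0.00129), the highest called value of a nuclear subunit gene in these comparisons. NDUFS6 rose by 0.32 ± 0.08 in WT (0.00782), 0.30 ± 0.08 in R117fs (0.0168) and 0.28 ± 0.08 in G659fs (0.0132).

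In complex III the core proteins UQCRC1 and UQCRC2, which form the matrix part of the complex, rose in all 3 comparisons with GFP. UQCRC1 was at 205, 222, 188 and 212 CPM in GFP, 235, 254, 235 and 250 in WT, 247, 240, 243 and 313 in R117fs and 260, 268, 264 and 267 in G659fs. No construct library overlapped the GFP range. UQCRC1 rose by 0.24 ± 0.08 in WT (adjusted p = 0.0379, edgeR), 0.33 ± 0.08 in R117fs (0.00816) and 0.36 ± 0.08 in G659fs (0.00278). UQCRC2 rose by 0.32 ± 0.06 in WT (0.000542), 0.23 ± 0.06 in R117fs (0.00989) and 0.18 ± 0.06 in G659fs (0.0216). UQCR11, a small membrane subunit, was at 57.7 to 63.4 CPM in GFP and 60.9 to 76.5 in WT, where it did not pass the test, and at 76.5 to 81.8 in G659fs, where it rose by 0.38 ± 0.09 (0.00406).

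ATP synthase held the largest rise in WT. ATP5MC1, a c-ring gene, was at 59.2, 55.2, 55.3 and 52.0 CPM in GFP, 70.6, 77.0, 71.7 and 72.6 in WT, 60.4, 65.1, 74.0 and 68.9 in R117fs and 66.8, 68.6, 68.6 and 74.3 in G659fs. Every construct library was above every GFP library, R117fs replicate 1 by the smallest margin. ATP5MC1 rose by 0.40 ± 0.07 in WT (adjusted p = 0.000541, edgeR), 0.27 ± 0.07 in R117fs (0.0121) and 0.33 ± 0.07 in G659fs (0.00193). Its sister ATP5MC3 rose by 0.20 ± 0.05 in WT (0.00688) and 0.17 ± 0.05 in G659fs (0.0152), and ATP5MC2 by 0.24 ± 0.08 in WT (0.0298) and 0.26 ± 0.08 in R117fs (0.0264). Without R117fs replicate 4 the R117fs values were 0.26 for ATP5MC1 and 0.19 for ATP5MC2, both still called. ATP5F1B was at 578, 628, 548 and 609 CPM in GFP and at 679, 728, 689 and 723 in WT, a rise of 0.25 ± 0.05 (0.00239). ATP5IF1, the inhibitor that binds ATP synthase when the gradient fails, had a log2 value of -0.02 ± 0.07 in WT (0.863).

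R117fs against GFP gave fewer calls: 17 of 83 nuclear genes and 1 of 13 mitochondrial genes rose and none fell (edgeR), against 7.04% of all tested genes called higher and 8.57% lower. The median log2 change was 0.12 over the nuclear and 0.11 over the mitochondrial genes, against -0.01 over all genes, with 69 and 13 values above 0. By complex 6 of 37 nuclear genes rose in complex I, 1 of 4 in complex II, 4 of 9 in complex III, 1 of 13 in complex IV and 5 of 20 in complex V. Complex II was represented by SDHB, at 88.8, 94.0, 90.4 and 88.1 CPM in GFP and 99.6, 105, 110 and 111 in R117fs, a rise of 0.23 ± 0.06 (adjusted p = 0.0123, edgeR). COX6A1 of complex IV, at 154 to 169 CPM in GFP, was at 177, 176, 203 and 253 CPM in R117fs and rose by 0.34 ± 0.09 (0.0169), R117fs replicate 4 lying far above the others. ATP5ME, a membrane subunit of ATP synthase, rose by 0.37 ± 0.12 (0.0426), with overlapping groups. Replicate 4 was also the highest R117fs library for UQCRC1, NDUFV1 and SDHB.

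The spread within R117fs followed base composition. Over the 83 nuclear genes the log2 change of R117fs against GFP had a Spearman correlation of 0.61 with the GC content of their transcripts (genes share libraries and are not independent). Without R117fs replicate 4 the correlation was 0.03. In that library alone the nuclear genes lay between -1.26 and 0.73 of the other 3 libraries' mean, and their deviation had a correlation of 0.86 with GC content. Mitochondrial genes have 39.6% to 47.7% GC, a narrower range than the 34.4% to 67.6% of the tested nuclear genes, and their median deviation in that library was 0.01. Without replicate 4, 20 nuclear genes and 1 mitochondrial gene, MT-ND3 (0.26, adjusted p = 0.0343, edgeR, against 0.22 and 0.0977 with it), rose in R117fs, where 9.85% of all tested genes did. The calls of ATP5ME (0.20, adjusted p = 0.0785, edgeR), UQCR11 (0.22, 0.0726) and MT-ATP8 (0.17, 0.06) ended without it, while UQCRC1 (0.23), NDUFV1 (0.24), COX6A1 (0.22, from 0.34) and NDUFS6 (0.19, from 0.30) still passed. With the GC trend of each library removed 34 nuclear genes rose, as did 13.4% of all genes. With an offset for effective transcript length 8 nuclear and 0 mitochondrial genes rose, when 4.62% of all genes did. With the 8 libraries of R117fs and GFP fitted alone 0 nuclear genes rose (19 at an unadjusted p under 0.05), when 1.38% of all genes were called higher. All groups share 1 estimate of the spread, and without this library the nuclear count against GFP was 52 rises in WT, and 46 rises and 2 falls in G659fs. Calls over all genes grew as well, to 18.2% higher in WT and 19.7% higher in G659fs.

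**Figure D3:**
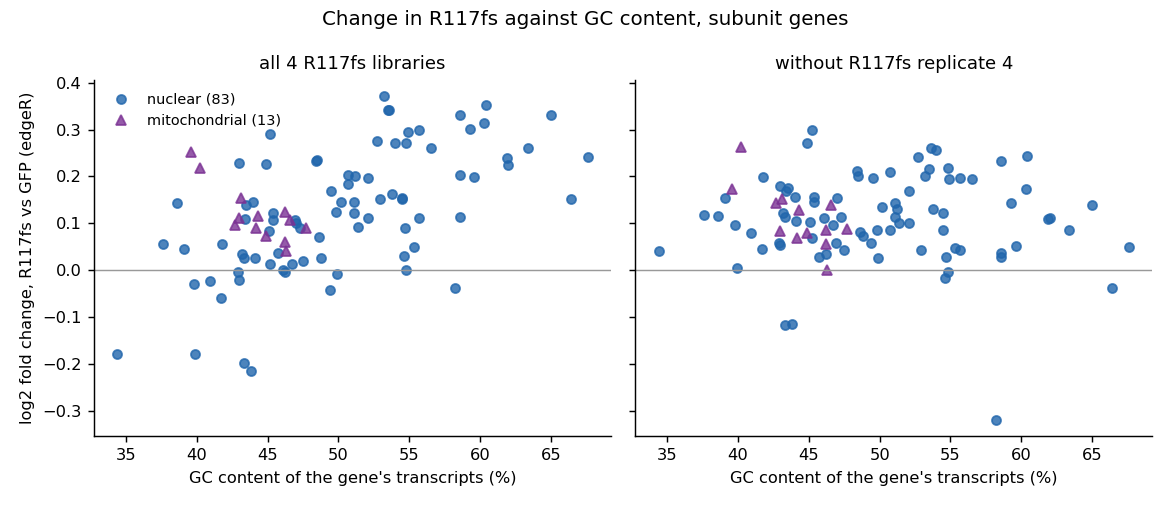
log2 fold change of R117fs against GFP for the 96 tested subunit genes, plotted against the GC content of their transcripts in percent, with all 4 R117fs libraries (left) and without replicate 4 (right); circles are nuclear and triangles mitochondrial genes. The upward slope of the nuclear genes on the left (Spearman 0.61) is not seen on the right (0.03).

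G659fs against GFP held the highest count of mitochondrial calls. Of the 13 mitochondrial genes 7 rose and none fell, and 24 of the 83 nuclear genes rose and none fell (edgeR), against 11.6% of all tested genes called higher and 13.8% lower. The median log2 change was 0.21 over the mitochondrial and 0.15 over the nuclear genes, against 0.00 over all genes, with 13 and 73 values above 0. Nuclear rises numbered 10 of 37 in complex I, 1 of 4 in complex II, 4 of 9 in complex III, 4 of 13 in complex IV and 5 of 20 in complex V. COX6B2 had the largest value, 0.66 ± 0.27, at 1.26 to 1.73 CPM in 3 libraries and 0.84 in the other against 0.71 to 0.99 in GFP, and did not pass the test (adjusted p = 0.0824, edgeR). COX6C rose by 0.29 ± 0.09 (0.0263) and COX7B by 0.22 ± 0.07 (0.0198), both small subunits of complex IV. COX7A2L, a factor that joins complexes III and IV into supercomplexes, was at -0.13 ± 0.08 (0.231).

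**Figure D4:**
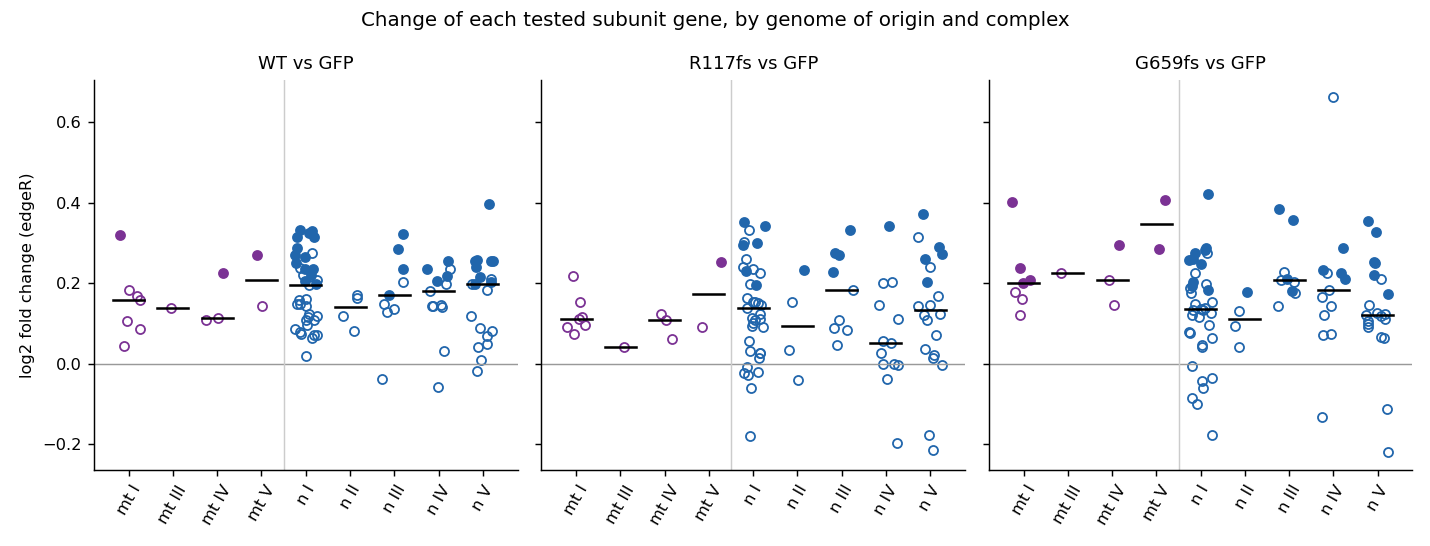
log2 fold change of each tested subunit gene in WT, R117fs and G659fs against GFP, grouped by genome (mt, mitochondrial; n, nuclear) and complex; filled points passed the edgeR test at an adjusted p under 0.05, and the black line is the median of a group. Filled points all lie above 0 and below 0.43.

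The mitochondrial genes that rose in G659fs were MT-ND2, MT-ND3, MT-ND4L and MT-ND5 of complex I, MT-CO3 of complex IV and both ATP synthase genes, MT-ATP6 and MT-ATP8. In WT they were MT-ND3, MT-CO3 and MT-ATP8, and in R117fs MT-ATP8. MT-ND3 was at 144, 166, 138 and 186 CPM in GFP, 212, 189, 206 and 185 in WT, 181, 188, 202 and 167 in R117fs and 193, 214, 211 and 219 in G659fs. GFP replicate 4 reached the lower WT and R117fs libraries but no G659fs library. MT-ND3 rose by 0.40 ± 0.09 in G659fs (adjusted p = 0.00284, edgeR) and 0.32 ± 0.09 in WT (0.0144). MT-CO3 was at 1353, 1359, 1270 and 1536 CPM in GFP, 1819, 1480, 1710 and 1442 in WT and 1692, 1767, 1765 and 1540 in G659fs, and rose by 0.29 ± 0.08 in G659fs (0.01) and 0.22 ± 0.08 in WT (0.0456). Its WT libraries overlapped GFP, and G659fs replicate 4 cleared GFP replicate 4 by a narrow margin. MT-ATP6 rose by 0.29 ± 0.07 in G659fs (0.00681), MT-ND4L by 0.24 ± 0.08 (0.0294), MT-ND2 by 0.21 ± 0.07 (0.0464) and MT-ND5 by 0.20 ± 0.06 (0.0284).

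MT-ATP8, a small membrane subunit of ATP synthase, was the one mitochondrial gene called in every comparison with GFP. It was at 29.7, 27.4, 30.7 and 31.6 CPM in GFP, 36.1, 33.6, 39.9 and 34.4 in WT, 33.7, 32.8, 34.5 and 41.7 in R117fs and 40.5, 40.9, 39.0 and 37.8 in G659fs. The GFP libraries lay below all others. MT-ATP8 rose by 0.27 ± 0.08 in WT (adjusted p = 0.0226, edgeR), 0.25 ± 0.08 in R117fs (0.0408) and 0.41 ± 0.08 in G659fs (0.00132). The call in R117fs ended when any of the 4 GFP libraries, R117fs replicate 4, or G659fs replicate 3 or 4 was left out. That in WT ended without GFP replicate 2 or WT replicate 3. Both ended with the GC trend removed and with a total without RNF43 and mitochondrial genes. The call in R117fs also ended with the effective length offset and with the 8 libraries alone. That in G659fs was kept under every alternative run. The level of MT-ATP8 rested on 666 to 1783 counts a library, against 27058 to 76993 for MT-CO3. MT-ATP8 (chrM:8366-8572 on GRCh38, 207 bases, no introns) overlaps the start of MT-ATP6 (chrM:8527-9207) in another reading frame, and both proteins are made from one messenger RNA. The gene is shown from GENCODE 29, with the 46 bases it shares with MT-ATP6 in capitals.
MT-ATP8: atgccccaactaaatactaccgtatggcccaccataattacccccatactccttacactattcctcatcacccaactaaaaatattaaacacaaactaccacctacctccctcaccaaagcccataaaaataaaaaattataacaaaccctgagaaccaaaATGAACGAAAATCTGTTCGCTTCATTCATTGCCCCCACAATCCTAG
A read from the shared bases fits both genes, and kallisto divided such reads by estimation. The change of MT-ATP6, 0.14 in WT, 0.09 in R117fs and 0.29 in G659fs, can be set beside that of MT-ATP8 on the same RNA. The other overlapping pair, MT-ND4L and MT-ND4, shares 7 bases.

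Among the mitochondrial genes of every complex the values lay above 0 in all 3 comparisons with GFP, called or not. The lowest were MT-ND4L in WT at 0.04, MT-CYB in R117fs at 0.04 and MT-ND1 in G659fs at 0.12. GFP replicate 4 had the highest mitochondrial sum of its group and a median deviation of 0.21 from the other GFP libraries over the 13 genes. Without it the nuclear rises numbered 13 in WT, 8 in R117fs and 11 in G659fs, and the share of all genes called higher was down too, at 5.34%, 3.72% and 7.91%. The mitochondrial genes called in WT and G659fs with every library were all still called without it, while MT-ATP8 in R117fs was not. Without GFP replicate 2 or 3 the mitochondrial rises in G659fs numbered 4, as they did without G659fs replicate 2 or 3. In those runs 7.86% to 8.93% of all genes were called higher in G659fs. In WT 1 mitochondrial gene passed without GFP replicate 1, 2 or 3 or WT replicate 1 or 3. There 6.34% to 8.2% of all genes were called higher in WT. For a total without RNF43 and the mitochondrial genes, the mitochondrial rises numbered 1, 0 and 4 in WT, R117fs and G659fs. The nuclear rises then numbered 14, 13 and 12, while 5.99%, 5.72% and 8.46% of all genes were called higher.

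Between the constructs the subunit genes differed little. Of the 96 genes none passed the edgeR test between R117fs and WT, where 8.11% of all tested genes changed in either direction. At an unadjusted p under 0.05 there were 14 nuclear and 0 mitochondrial genes, and DESeq2 called 2 and 0. Between G659fs and WT none passed either, against 5.68% of all tested genes. The unadjusted count was 9 nuclear and 1 mitochondrial, and DESeq2 called 6 and 0. The lowest adjusted p there belonged to NDUFV3, a small accessory subunit of complex I, with -0.21 ± 0.06 (0.0502, edgeR), lower in each G659fs library than in each WT library. How many of all genes were separated in this direction was not counted. Leaving out R117fs replicate 4, which is in neither group, gave 12 nuclear calls between G659fs and WT, 10 of them lower in G659fs, when 20.7% of all genes were called.

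G659fs and R117fs differed in 6 nuclear genes and no mitochondrial gene: 2 were higher in G659fs, where 6.35% of all tested genes were, and 4 lower, against 8.02%. For the mitochondrial genes 3 had an unadjusted p under 0.05 and DESeq2 called 0. COX7C was at 215, 204, 222 and 179 CPM in R117fs and 249, 242, 240 and 234 in G659fs, and was higher in G659fs by 0.24 ± 0.07 (adjusted p = 0.0248, edgeR). ATP5MF, the f subunit of ATP synthase, was at 67.7, 66.0, 75.3 and 65.1 CPM in R117fs and 82.9, 81.6, 79.0 and 78.4 in G659fs, a difference of 0.23 ± 0.06 (0.0228). For both genes all G659fs libraries lay above all R117fs libraries, as in 9.28% of all tested genes, and replicate 4 was the lowest R117fs library.

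Lower in G659fs were ATP5IF1, NDUFB9, NDUFV3 and ATP5PD. ATP5IF1 was at 130, 143, 158 and 156 CPM in R117fs and 130, 121, 120 and 118 in G659fs, a difference of -0.26 ± 0.06 (adjusted p = 0.0123, edgeR). NDUFB9, an accessory subunit of complex I, was at 102, 92.3, 101 and 121 CPM in R117fs and 94.0, 84.5, 79.7 and 87.6 in G659fs, overlapping through R117fs replicate 2, with -0.26 ± 0.08 (0.0328). NDUFV3 was at 86.5, 83.4, 82.6 and 87.3 against 75.4, 69.8, 71.4 and 77.0 CPM, with -0.21 ± 0.06 (0.0264). ATP5PD, the d subunit of the ATP synthase stalk, was at 97.9, 102, 106 and 99.4 against 90.0, 92.1, 86.1 and 91.8 CPM, with -0.17 ± 0.06 (0.0466). ATP5IF1, NDUFV3 and ATP5PD did not overlap between the variants. The share of all genes wholly lower in G659fs than in R117fs was not counted. Without R117fs replicate 4 the comparison gave 7 higher and 7 lower nuclear genes and 2 higher mitochondrial genes (MT-ATP6, 0.22, and MT-ATP8, 0.23), when 11.5% of all genes were called higher and 12% lower. COX6B2, at 0.60 to 1.49 CPM in R117fs, had the largest of these differences, 0.99 (adjusted p = 0.0112, edgeR, against 0.70 and 0.0943 with all 4 libraries). With the 8 libraries of the variants fitted alone the comparison gave 0 (9 nuclear and 2 mitochondrial genes at an unadjusted p under 0.05). Of all genes 1.48% were then called higher and 3.37% lower. All 6 genes still passed without R117fs replicate 4, COX7C with 0.18 and NDUFB9 with -0.185.

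**Figure D5:**
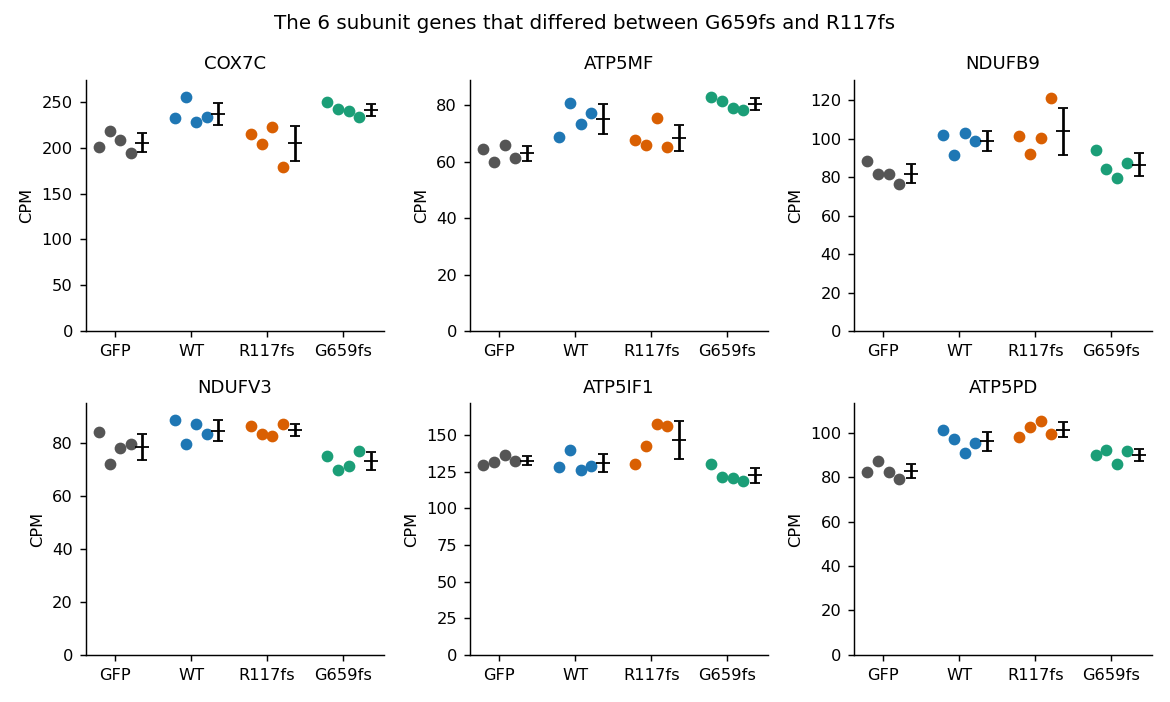
CPM in every library of the 6 nuclear subunit genes that passed the edgeR test between G659fs and R117fs; points are libraries in replicate order, and the bar beside each group gives the mean and SD of 4 libraries. COX7C and ATP5MF are higher in G659fs, while NDUFB9, NDUFV3, ATP5IF1 and ATP5PD are lower.

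Genes that build and feed the chain were read from lists of their own, and each count is set against the share of all tested genes called: 9.85% higher and 11.6% lower in WT, 7.04% and 8.57% in R117fs, and 11.6% and 13.8% in G659fs. The lists were not tested against these shares. Of 14 complex I assembly factors 4 rose and 1 fell in WT, 2 rose and 1 fell in R117fs and 1 rose and 1 fell in G659fs (edgeR). NDUFAF3 rose by 0.54 ± 0.10, 0.44 ± 0.10 and 0.33 ± 0.10 in the 3 comparisons with GFP, and NDUFAF6 fell by 0.38, 0.55 and 0.48. Of 10 assembly factors of complexes II and III 1 rose in WT, and 4 rose and 1 fell in R117fs, where SDHAF2, which attaches the flavin to complex II, fell by 0.30. None of the 10 passed in G659fs, where 3 had an unadjusted p under 0.05 and DESeq2 called 1. Complex IV assembly factors rose in 5, 3 and 3 of 22 cases and none fell, COA4 and COA6 among them each time. ATPAF1, which chaperones the beta subunit of ATP synthase, was the 1 of 3 ATP synthase assembly factors that rose, in WT, by 0.26 ± 0.08. Cytochrome c (CYCS) rose by 0.36 ± 0.12 in WT and 0.41 ± 0.12 in G659fs, and CYC1 by 0.36 ± 0.10 in R117fs. With replicate 4 left out the R117fs values were 0.31 for NDUFAF3 and 0.22 for CYC1, both still called. The rises in R117fs then numbered 3 of 14, 5 of 10 and 9 of 22 in the lists of complex I, complexes II and III, and complex IV. Of all genes 9.85% were called higher and 11.9% lower in R117fs without that library.

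Mitochondrial ribosomal proteins, which translate the 13 mitochondrial messages, rose in 30 of 78 genes in WT and 24 in R117fs with none lower, and in G659fs 17 rose and 1 fell. These counts stand beside 9.85%, 7.04% and 11.6% of all tested genes called higher. Their median log2 change was 0.17 in WT and in R117fs and 0.08 in G659fs. MRPL30 and MRPL15 rose by 0.49 ± 0.09 and 0.46 ± 0.08 in WT, and MRPL12 by 0.47 ± 0.08 in R117fs and 0.41 ± 0.08 in G659fs. In the direct comparisons 11 of the 78 were lower in G659fs than in WT and 9 lower than in R117fs, and none was higher (edgeR). Of all tested genes 3.35% were lower and 2.32% higher in G659fs than in WT, and 8.02% and 6.35% than in R117fs. With replicate 4 of R117fs left out, 39 of the 78 rose in R117fs against GFP, MRPL12 by 0.36, beside 9.85% of all genes. In that fit 21 were lower and 4 higher in G659fs than in R117fs, beside 12% and 11.5% of all genes. MRPS9 stood at -0.31 ± 0.06 against WT (adjusted p = 0.00798, edgeR) and -0.36 ± 0.06 against R117fs (0.00071).

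Genes that copy and transcribe mitochondrial DNA were called both ways, as were all genes (9.85% higher and 11.6% lower in WT, 7.04% and 8.57% in R117fs, 11.6% and 13.8% in G659fs). Of 13 such genes 1 rose and 2 fell in WT, 3 fell in R117fs, and 2 rose and 2 fell in G659fs. SSBP1, the single-stranded DNA binding protein, rose by 0.41 ± 0.10 in WT, and in G659fs the polymerase POLG rose by 0.31 ± 0.07 and the helicase TWNK by 0.24 ± 0.08. POLG2, the polymerase's accessory subunit, fell by 0.37 in WT and 0.33 in G659fs, and MGME1, an exonuclease, fell by 0.27, 0.20 and 0.31 in WT, R117fs and G659fs. Of 19 measured genes for processing and stability of mitochondrial RNA 3 rose and 2 fell in WT, 2 rose and 1 fell in R117fs and 1 rose and 1 fell in G659fs. TFB1M, which methylates mitochondrial ribosomal RNA, rose by 0.48 ± 0.08 in WT and 0.32 ± 0.08 in R117fs. SLIRP, an RNA-binding protein, rose by 0.39 ± 0.08 in WT, and FASTKD5, an RNA processing factor, fell by 0.37 in WT and 0.63 in R117fs. Leaving out R117fs replicate 4 gave R117fs values of -0.57 for FASTKD5, 0.40 for TFB1M and -0.15 for MGME1, all still called. The counts in R117fs were then 1 higher and 3 lower of 13 and 5 higher and 3 lower of 19. Of all genes 9.85% were called higher and 11.9% lower in that fit.

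Nuclear regulators of respiratory genes showed few calls, in comparisons where 9.85% (WT), 7.04% (R117fs) and 11.6% (G659fs) of all genes were called higher. Of 8 none passed in WT or R117fs, with 1 and 0 genes at an unadjusted p under 0.05 and 1 and 0 called by DESeq2, and 2 rose in G659fs: PPARGC1B, a coactivator, and the nuclear receptor ESRRA, each by 0.30, with SEs of 0.07 and 0.10. Citric acid cycle enzymes rose in 4, 3 and 4 of 14 cases, and DLST fell by 0.18 in G659fs. IDH2 rose by 0.46 ± 0.09, 0.44 ± 0.09 and 0.51 ± 0.09, and SUCLG2 by 0.58 ± 0.11 in WT. Of 12 mitochondrial chaperones and proteases 3, 2 and 1 rose and 1, 0 and 1 fell. TRAP1, the mitochondrial HSP90, rose by 0.46 ± 0.07, 0.38 ± 0.07 and 0.45 ± 0.07, and the protease subunit CLPX fell by 0.26 in WT and 0.34 in G659fs. Leaving out R117fs replicate 4, 5 of 14 cycle enzymes and 4 of 12 chaperones and proteases rose in R117fs, IDH2 by 0.37 and TRAP1 by 0.32. The share of all genes called higher in that fit was 9.85%.

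Sequence that subunit genes share with other genes bears on these counts, since reads from it are divided by estimation. Of the 31-base windows of MT-CO1, 66.7% also occur in other annotated transcripts, as do 63.7% of those of MT-ATP6, 56.9% of MT-ND2 and 50.5% of MT-CO2, mostly in copies of mitochondrial DNA within nuclear chromosomes. The share was 5.0% for MT-CYB and 3.5% for MT-ND3. All 393 annotated copies together held 3.19% to 3.52% of the counts of mitochondrial genes and copies in a library, MTATP6P1 on chromosome 1 leading at 395.9 CPM. MTATP6P1 shares 61.3% of the windows of MT-ATP6, and MT-ATP6 and MT-ATP8 together were at 1316 CPM in GFP. The level of MT-ATP6 therefore depends more on this division than the pooled share shows. With each gene's copies added to it, all 11 mitochondrial calls against GFP were still made. For nuclear genes the share was 43.9% for UQCRH, with UQCRHL, 49.4% for COX6A1, mostly with a pseudogene, 81.8% for NDUFA7 and 98.9% for ATP5MF-PTCD1, whose values cannot be told apart from those of PTCD1.

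Promoters were read for 68 of the 89 nuclear genes, as 250 bases before to 50 after the start in RefSeq (GRCh38.p14), and searched on both strands for 3 words of 8 bases. The word GCATGCGC of the NRF1 site, a factor known for activating respiratory genes, was in 13 of the 68 (19.1%), against 3.27% of all 27305 promoters and 4.32% of those of coding genes. The YY1 word AAGATGGC was in 11 (16.2%), against 3.03% and 4.0%. The ETS word CCGGAAGT, bound by the NRF2 factor GABPA, was in 9 (13.2%), against 4.44% and 6.37%. Of the 68, 27 held at least 1 of the words. A match is a run of letters, not a measured site. Of the 27 genes with a word, all tested, 11 rose in WT, 11 in R117fs and 6 in G659fs, and of the 38 tested genes with a promoter and no word 12, 3 and 11 did (12 and 5 in R117fs without replicate 4). Of all tested genes 9.85% were called higher in WT, 7.04% in R117fs and 11.6% in G659fs, and 9.85% in R117fs without replicate 4. The difference between genes with and without a word was not tested. Genes with words and no call in R117fs include SDHD (2 NRF1 words and 1 ETS word, log2 value 0.03), COX5B (1 and 2, 0.11) and NDUFA6 (1 NRF1 and 1 YY1 word, -0.06). The 2 NRF1 words of SDHD overlap in a single stretch of bases, 1 read on each strand. The promoters of 6 genes that rose in R117fs are shown as examples, chosen after their values were seen, because they carry these words in different arrangements, with the words in capitals and the strand of the gene printed 5′ to 3′.
NDUFS6 (chr5:1801157-1801456, + strand): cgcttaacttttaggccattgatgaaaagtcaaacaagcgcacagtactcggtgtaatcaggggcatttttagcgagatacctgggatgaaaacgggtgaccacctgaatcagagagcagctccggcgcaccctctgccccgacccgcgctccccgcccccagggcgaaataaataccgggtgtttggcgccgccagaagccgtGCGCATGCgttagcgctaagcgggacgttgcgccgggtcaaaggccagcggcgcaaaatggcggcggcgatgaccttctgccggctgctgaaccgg
SDHB (chr1:17053983-17054282, - strand): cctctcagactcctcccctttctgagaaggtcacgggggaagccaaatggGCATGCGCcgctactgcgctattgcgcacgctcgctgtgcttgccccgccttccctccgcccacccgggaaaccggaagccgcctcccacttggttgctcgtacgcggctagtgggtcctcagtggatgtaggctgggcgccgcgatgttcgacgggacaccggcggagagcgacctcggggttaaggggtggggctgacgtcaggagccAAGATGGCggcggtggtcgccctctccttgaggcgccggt
UQCRC1 (chr3:48609597-48609896, - strand): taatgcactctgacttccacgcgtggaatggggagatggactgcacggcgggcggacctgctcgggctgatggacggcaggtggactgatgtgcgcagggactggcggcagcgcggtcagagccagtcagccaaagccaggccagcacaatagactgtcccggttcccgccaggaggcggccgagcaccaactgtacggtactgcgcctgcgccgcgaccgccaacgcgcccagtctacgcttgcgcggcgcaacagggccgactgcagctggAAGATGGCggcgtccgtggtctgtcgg
UQCR11 (chr19:1605413-1605712, - strand): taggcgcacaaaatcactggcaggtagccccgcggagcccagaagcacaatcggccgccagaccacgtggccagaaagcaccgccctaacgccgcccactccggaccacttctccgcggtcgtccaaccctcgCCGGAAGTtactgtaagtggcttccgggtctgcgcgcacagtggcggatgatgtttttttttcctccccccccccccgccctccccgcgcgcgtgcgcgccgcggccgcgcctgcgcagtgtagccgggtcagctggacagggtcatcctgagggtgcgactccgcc
COX6A1 (chr12:120437863-120438162, + strand): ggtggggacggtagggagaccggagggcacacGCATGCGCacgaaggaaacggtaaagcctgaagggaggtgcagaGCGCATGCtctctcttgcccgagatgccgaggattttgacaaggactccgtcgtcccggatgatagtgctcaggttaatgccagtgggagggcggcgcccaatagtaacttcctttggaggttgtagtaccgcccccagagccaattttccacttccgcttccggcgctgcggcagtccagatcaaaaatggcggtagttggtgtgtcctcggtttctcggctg
ATP5PD (chr17:75046920-75047219, - strand): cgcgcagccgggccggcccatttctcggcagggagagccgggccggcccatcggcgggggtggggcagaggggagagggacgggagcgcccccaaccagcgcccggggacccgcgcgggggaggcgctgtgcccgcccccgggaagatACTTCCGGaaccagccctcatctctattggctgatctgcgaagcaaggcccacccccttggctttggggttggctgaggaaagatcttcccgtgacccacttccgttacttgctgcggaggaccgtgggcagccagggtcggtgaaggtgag
NDUFS6 holds 1 NRF1 word, read on the other strand. COX6A1 holds 2, one on each strand. SDHB holds an NRF1 word far from its start and a YY1 word close to it, where UQCRC1 has its own YY1 word. UQCR11 and ATP5PD each hold 1 ETS word, on opposite strands. Beside these words stood rises of 0.30 (NDUFS6), 0.23 (SDHB), 0.33 (UQCRC1), 0.27 (UQCR11), 0.34 (COX6A1) and 0.29 (ATP5PD) in R117fs against GFP. Without R117fs replicate 4 they were 0.19, 0.21, 0.23, 0.22, 0.22 and 0.30, and UQCR11 was no longer called (adjusted p = 0.0726, edgeR).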

How the data were processed

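RNA of 16 HEK293 libraries, 4 per overexpressed construct, was sequenced. The submitters' processing notes name kallisto 0.45.1 and GRCh38. The deposited files give an estimated count, a TPM value and an effective length, a number of bases, for each of 178136 transcripts. The TPM values were made by the authors and scale counts by effective length. The annotation release, read length and strand setting are not given in the sources used here. Transcripts were matched by identifier to GENCODE 29 (91.2% matched, the rest holding 1.904% to 2.216% of a library's counts), and the deposited estimated counts were summed over 35075 genes and rounded.

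Differences were tested with edgeR 4.0.16 (R 4.3.3): TMM, filterByExpr (16787 genes), robust dispersions and the quasi-likelihood test, in 1 fit of all 16 libraries, with Benjamini-Hochberg adjustment over all genes tested and a threshold of 0.05. The common biological coefficient of variation was 0.103. Tested on simulated data for WT against GFP over 16787 genes, the test recovered 100% of changes of 1 and 83% of changes of 0.5 on the log2 scale, larger than most changes reported here. Values after ± are SDs of 4 libraries for levels and standard errors for log2 changes. CPM is after TMM. No 2 libraries of a group agreed within sampling noise. Alternatives were DESeq2 1.42.0, no low-count filter, an effective length offset, removal of each library's GC trend, the 8 libraries compared alone, the replicate number as a block, a total without RNF43 and mitochondrial genes, nuclear copies of mitochondrial genes added, and each library left out.

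The subunit genes and the supporting gene lists were chosen with earlier results of these data known. Named are all mitochondrial genes, the genes past the threshold with the largest change per complex (up to 3 a direction and comparison), the highest gene per complex, the tissue forms and paralogs, and up to 3 genes per list, direction and comparison. The values of 1 gene that this rule names are not reported here.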

Additional observations from a re-analysis of the deposited data

Results flagged for a closer look

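Among 152 groups of 4 libraries screened, 6 had a library far from the other 3, by a criterion that chance meets in about 1 of 20 groups. Summed nuclear-encoded subunit genes were at 8933 CPM in WT replicate 2, against 8619 to 8661 in the other WT libraries. The same library was high for the nuclear genes of complex I (2544 CPM against 2492 to 2498), complex II (528.9 against 497.1 to 501.6) and complex IV (1600 against 1517 to 1520). Without it 18 nuclear genes rose in WT against GFP in place of 31, and 6.57% of all genes in place of 9.85%. NDUFV1 was low in G659fs replicate 3, at 183.7 CPM against 190.9 to 192.3, still above every GFP library. UQCRC1 was high in R117fs replicate 4, at 312.9 CPM against 239.6 to 246.6.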

How the results depend on the processing

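No named call changed direction under any alternative. Of 74 named calls 23 were kept under every alternative: 10 of 26 in WT, 0 of 17 in R117fs and 13 of 25 in G659fs against GFP, and 0 of 6 between G659fs and R117fs. Those kept in G659fs included MT-ATP6, MT-ATP8, MT-CO3 and MT-ND3. With a total without RNF43 and mitochondrial genes, WT had 1 mitochondrial and 14 nuclear calls, R117fs 0 mitochondrial and G659fs 4 mitochondrial and 12 nuclear. Of all genes 5.99%, 5.72% and 8.46% were called higher in WT, R117fs and G659fs on that scale. The nuclear sum then differed from GFP by 0.12 in WT and 0.11 in G659fs (0.039, 0.032 and 0.062 in WT, R117fs and G659fs as sums of TPM). With 8 libraries alone, WT had 51 nuclear calls, R117fs 0 nuclear and 0 mitochondrial, G659fs 50 nuclear, G659fs against WT 16 nuclear and 1 mitochondrial, and G659fs against R117fs 0 nuclear. Of all genes, 18.1% were then called higher and 18.2% lower in WT, 1.38% and 2.29% in R117fs and 21.9% and 21.2% in G659fs. The shares were 13.4% and 15.1% in G659fs against WT, and 1.48% and 3.37% in G659fs against R117fs. With the GC trend removed the nuclear calls numbered 34 in R117fs and 44 in G659fs, 14 between the variants, 10 between G659fs and WT and 5 between R117fs and WT. Of all genes, 13.4% were then called higher and 14% lower in R117fs, and 20.1% and 19.9% in G659fs. The shares were 14.5% and 14.6% between the variants, 8.89% and 10.5% in G659fs against WT, and 8.6% and 8.83% in R117fs against WT. The effective length offset gave R117fs 8 nuclear and 0 mitochondrial calls, and the contrast of the variants 1 of each. It called 4.62% of all genes higher and 5.74% lower in R117fs, and 4.57% and 5.68% between the variants. DESeq2 called 11 nuclear genes between the variants, 6 between G659fs and WT and 2 between R117fs and WT. Its shares of all genes called in either direction were 17.9%, 9.91% and 12.1% in the same order. The cause of these shifts was not tested.

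Leaving out each library in turn gave 1 to 3 mitochondrial and 13 to 52 nuclear calls in WT, 0 to 1 and 8 to 26 in R117fs and 4 to 9 and 11 to 48 in G659fs against GFP. For nuclear genes it gave 0 to 2 between R117fs and WT, 0 to 12 between G659fs and WT and 1 to 14 between G659fs and R117fs, and for mitochondrial genes 0 to 2 in the last. Against GFP, 13.1% to 36% (WT), 8.56% to 21.7% (R117fs) and 18% to 39.4% (G659fs) of all genes were called in these runs. Between the constructs the shares were 3.69% to 15.4%, 0.589% to 20.7% and 7.79% to 23.5%, in the order given. Summed nuclear differences ranged from 0.162 to 0.188 (WT), 0.125 to 0.162 (R117fs) and 0.138 to 0.164 (G659fs); leaving libraries out of the sums was added after seeing the data. With the replicate number as a block, nuclear calls numbered 31, 18 and 25 against GFP, 8 between the variants, 3 between G659fs and WT and 2 between R117fs and WT. It called 2, 1 and 6 mitochondrial genes against GFP. Of all genes 23.5%, 17.3% and 27.2% were then called against GFP. The share was 16.3% between the variants, 8% between G659fs and WT and 11% between R117fs and WT. Same-numbered libraries had correlations of -0.062 to 0.16 in their deviations, 4 of 24 pairs over 0.1, and other pairs -0.203 to 0.179. Of the 16 libraries 8 correlated best with their own number. The main fit did not pair samples by number, and these values do not decide whether the numbers pair them. The called subunit changes with all 16 libraries were under 0.5 on the log2 scale, below the smallest size simulated, so a missing call does not show that a gene did not change.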
